A study of Homo sapiens with 14 samples.

Results

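The short transcripts described here are the UCSC transcripts of more than 200 and at most 1000 bases that are listed in all 8 tables of read starts. They number 529 of the 4722 transcripts listed in all 8 tables, or 11.2%. Their choice rests on length and on being listed, not on any change between conditions. Their lengths run from 216 to 1000 bases with a median of 778, 73 of them have up to 500 bases, and 456 are longer. A gene symbol is known for 207 of them, and the files used here do not pair the other 322 with a name. The table of S1 control replicate 1 lists only the 4722 transcripts, and of 2805 transcripts of this length listed in any table, 1486 are listed in the other 7. Short transcripts missing from that table were not analysed here.

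The human cells are labelled HepG2, a name for a line grown from a tumour of the liver, and carried either siRNA against ADAR1 (knockdown, KD) or a scrambled siRNA (control), in a transfection that the labels call stable. In PARS-seq, poly-A RNA was digested with S1 nuclease, which cuts at unpaired bases, or with RNase V1, which cuts at paired bases, and the first base of each read marks a cut. Each nuclease and condition has 2 PARS-seq libraries, 8 in all. RNA-seq adds 1 library for each condition and Ribo-seq 2. The study calls the replicates biological, and the labels do not say whether they were separate cultures.

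ADAR1 is an enzyme that turns adenosine into inosine in double-stranded RNA, which can change how RNA strands pair. Short mRNAs mostly encode small and abundant proteins, such as those of the ribosome and the respiratory chain, and the mRNAs of core histones are short as well. In PARS-seq, a high ratio of V1 to S1 read starts marks paired RNA and a low ratio unpaired RNA.

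What a cut looks like in a short transcript is shown by 3 genes with different roles. RPS21 encodes a protein of the small ribosomal subunit, MRPL43 one of the large mitochondrial ribosomal subunit, and HIST1H4B the core histone H4. The windows are 30 bases of coding sequence on GRCh37, 5′ to 3′ on the strand of the gene, and the capital is the first base of the reads, shown because a single base can hold a large share of the cuts of a short transcript. They were chosen after the values were seen, as the most covered bases within the coding sequence. Of the 207 named transcripts, 5 have a GENCODE transcript of the same symbol and length, so that no wider search was made.
RPS21, base 238 of 418, cut by V1, chr20:60963380-60963409, plus strand: tccattctccgattgGccaaggccgatggc
MRPL43, base 360 of 894, cut by S1, chr10:102746669-102746698, minus strand: caagtcggtcgaggaGatctcgacgctggt
MRPL43, base 328 of 894, cut by V1, chr10:102746701-102746730, minus strand: aacggggctgtgcgcGaggagagcatccac
HIST1H4B, base 183 of 357, cut by S1, chr6:26027284-26027313, minus strand: tggcgttctcaaggtGtttctggagaacgt

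At the RPS21 base, 5.99 and 5.71% of the V1 read starts of the transcript fell in control and 5.18 and 5.75% in KD, given as replicates 1 and 2, against 0.0542 to 0.106% in the S1 libraries. The S1 base of MRPL43 took 24.1 and 31.5% of its S1 cuts in control and 19.7 and 26.7% in KD, against 0.0680 to 0.191% of its V1 read starts. The base of HIST1H4B held 41.6 and 40.9% of the S1 cuts in control and 48.0 and 44.3% in KD, against 0 to 0.271% in V1. Not every transcript has such a base in its coding sequence. The most covered S1 base there held 0.511 to 0.967% in RPS21 and 0.372 to 0.431% in MORN2, whose most covered V1 base held 0.0590 to 0.188%. Since the bases were picked as the most covered for 1 nuclease, the gap between the nucleases at them follows in part from the choice. Control and KD overlapped at the printed V1 base of RPS21 and S1 base of MRPL43 and not at that of HIST1H4B. Histone and ribosomal protein genes have near-identical copies elsewhere in the genome. The authors kept uniquely aligned reads, and for read starts along transcripts this means unique among the UCSC transcripts. Where such copies are among these transcripts, the levels of these genes are uncertain.

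The read starts on the 4722 transcripts summed to 105584159 and 112971361 in S1 control, 128149871 and 88565995 in S1 KD, 102727180 and 106049447 in V1 control, and 197781370 and 110610610 in V1 KD. Short transcripts held 14997394 and 11920978 of them in S1 control, 10258391 and 7893162 in S1 KD, 8388143 and 7086257 in V1 control, and 9927540 and 6911519 in V1 KD. V1 KD replicate 1 was the deepest library and S1 KD replicate 2 the shallowest. Every short transcript had at least 101 read starts in every library, so that all 529 passed the filter on low values, and the median transcript had between 3061 and 5225. The reads carry no molecular identifiers, so that counting error is only part of the error of a value.

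The target of the siRNA was lower in the KD sample of each pair of RNA-seq and Ribo-seq libraries. ADAR, the gene of ADAR1, stood at 54.8 RPKM in the RNA-seq library of control cells and at 15.4 in that of KD cells. In Ribo-seq it stood at 43.6 RPKM in control and 8.73 in KD for replicate 1, and at 55.5 and 44.0 for replicate 2. The reduction was therefore 72.0% in RNA-seq, 80.0% in Ribo-seq replicate 1 and 20.6% in replicate 2. For PARS-seq the authors give RPKM only as means over an S1 and a V1 library, which were not used here, and no file pairs ADAR with a transcript in the tables of read starts.

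Markers of liver cells went against the label HepG2. Of 8 genes that mark a line of hepatocyte origin, 7 stayed under 1 RPKM in all 6 RNA-seq and Ribo-seq libraries, and APOA2, the most abundant, reached 2.12 in Ribo-seq control replicate 1 alone. AFP, TTR and FGB were at 0 in all 6, and ALB was at most 0.0442. Summed over the list, the level was 0.610 RPKM in RNA-seq control and 0.893 in RNA-seq KD, 2.64 and 0 in the Ribo-seq control libraries, and 0.367 and 0.879 in those of Ribo-seq KD. The cells are therefore called cells labelled HepG2 here.

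Among markers of other cells, those of fibroblasts were the most abundant. COL1A1, the most abundant of the 4, ranged from 9.75 to 54.7 RPKM, while COL1A2 stayed at or below 0.123. Their sum was 60.1 RPKM in RNA-seq control and 44.2 in RNA-seq KD, 21.4 and 17.2 in the Ribo-seq control libraries, and 20.2 and 11.9 in those of Ribo-seq KD. Each KD sum lay below the control sum of the same assay and number. The 4 leukocyte markers summed to at most 0.497 RPKM, led by CD14 with PTPRC at most 0.0226, and the 3 endothelial markers to at most 0.620, led by CDH5. The part of these levels in the results below was not tested, and in bulk RNA fewer cells of a kind and less RNA per cell cannot be told apart.

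Among the transcripts listed in all 8 tables, short ones were covered more deeply per base than longer ones. Listing in S1 control replicate 1 limited the members, and every short one had at least 101 read starts in each library. Whether the difference holds without that limit was not tested. The median over the short transcripts of the mean scaled read starts per base was 6.16, against 2.20 over the 3964 transcripts over 1000 bases, and single members ranged from 0.510 to 2743. They took a larger share of the S1 than of the V1 libraries. Of the S1 read starts, short transcripts held 14.2 and 10.6% in control and 8.00 and 8.91% in KD, with a mean of 10.4 ± 2.74% (SD, n = 4 libraries). Of the V1 read starts they held 8.17 and 6.68% in control and 5.02 and 6.25% in KD, with a mean of 6.53 ± 1.30%. The V1 control replicate 1 library reached into the range of the S1 libraries, and an exact permutation test of 4 against 4 libraries gave a two-sided p of 0.0571. Within a condition and number V1 lay below S1 in 4 of 4 cases, a pairing that the test does not use.

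A single transcript of 13513 bases took 26.0 and 39.1% of the read starts in S1 control, 48.9 and 46.1% in S1 KD, 38.2 and 46.4% in V1 control, and 59.3 and 47.0% in V1 KD. With it left out of the totals, short transcripts held 19.2, 17.3, 15.7 and 16.5% of the 4 S1 libraries and 13.2, 12.5, 12.3 and 11.8% of the 4 V1 libraries, given as control replicates 1 and 2 and KD replicates 1 and 2. The nucleases no longer overlapped, and the exact permutation test gave 0.0286, the smallest p that 4 against 4 libraries allow. On all read starts the p depended on single libraries. The mean difference of V1 less S1, −3.89 percentage points, was −4.69 without S1 KD replicate 1 (exact permutation p = 0.0286) and −2.63 without S1 control replicate 1 (exact permutation p = 0.0857). The exact permutation p was 0.143 without V1 KD replicate 1, 0.114 without V1 KD replicate 2, 0.0857 without V1 control replicate 2 and 0.0571 without any other library. The 2 most covered short transcripts carried much of the difference. The first, of 593 bases, held 17.6 to 24.1% of the short-transcript read starts in S1 and 6.01 to 15.7% in V1. Without both of them and without the transcript of 13513 bases, the shares were 12.3 ± 0.521% in S1 and 10.8 ± 0.393% in V1, still without overlap (exact permutation p = 0.0286), in a comparison chosen after seeing the data.

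**Figure D1:**
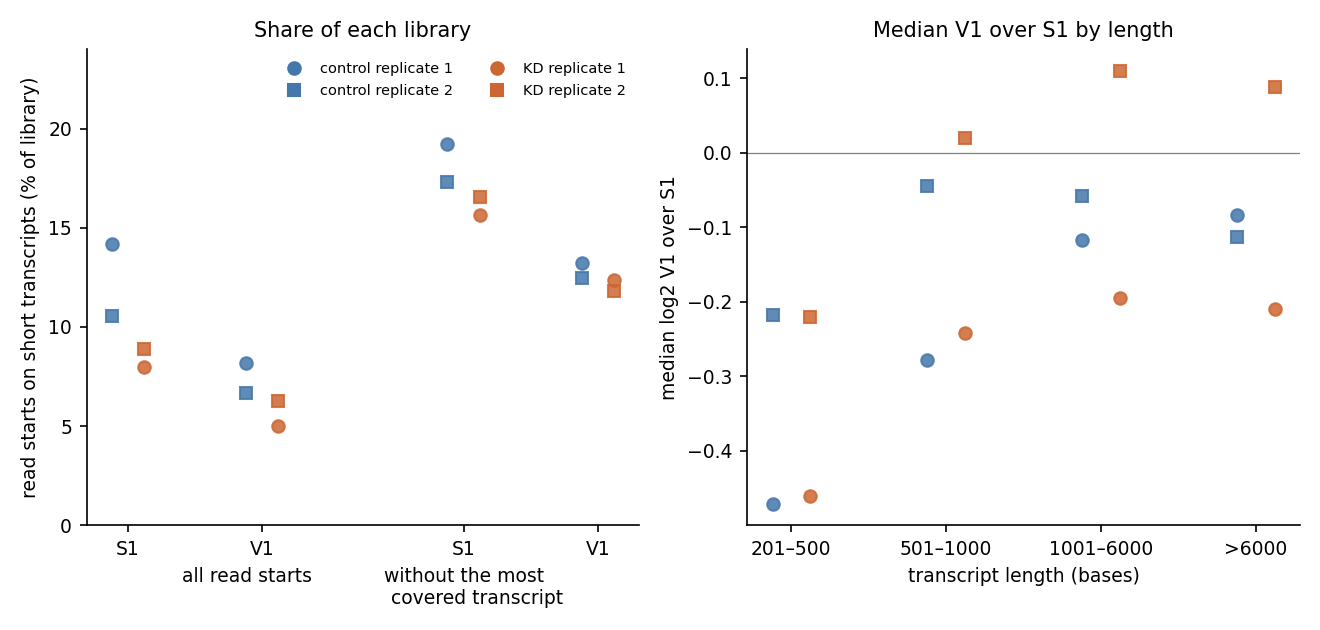
Share of the library read starts on the 529 short transcripts in percent, each point a library, with all read starts and without the transcript of 13513 bases, and the median log2 of V1 over S1 by transcript length for the 4 profiles. The S1 libraries lie at 15.7 to 19.2% and the V1 libraries at 11.8 to 13.2% once that transcript is left out.

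The balance of V1 to S1 differed widely among short transcripts and was much the same in control and KD. Each of the 4 profiles sets a V1 library against the S1 library of the same condition and number. Changes per replicate set KD against control of the same number. The labels do not establish such pairings. After scaling to equal library totals, the median log2 ratio over the short transcripts was −0.29 in control replicate 1 and −0.08 in control replicate 2, and −0.26 and −0.01 in KD. Transcripts over 1000 bases had medians of −0.12 and −0.06 in control and of −0.20 and 0.11 in KD. Short transcripts were lower in each of the 4 profiles, and an exact permutation test of the signs of 4 differences cannot give a p under the 0.125 found here. Among short transcripts, those of up to 500 bases were lower than the rest, at −0.47 and −0.22 in control and −0.46 and −0.22 in KD. Transcripts of up to 200 bases, which are not members, had −0.25 and −0.10 in control and −0.55 and −0.47 in KD.

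The spread among short transcripts was wider than among longer ones. Over the short transcripts the log2 ratio had an SD of 0.810 and 0.757 in control and of 0.788 and 0.747 in KD, against 0.553 to 0.566 over the longer transcripts (exact permutation p = 0.125, the smallest that 4 profiles allow). In all 4 profiles, 13 short transcripts, or 2.46%, stayed above 1 on the log2 scale and 43, or 8.13%, stayed below −1. The same shares were 0.555 and 2.88% over the longer transcripts. The mean over the profiles ran from −4.68 to 3.85 among short transcripts.

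Even mRNAs for proteins of the same particle lay on opposite sides of 0. RPS21 had 269 and 255 scaled read starts per base in S1 control, 259 and 314 in S1 KD, 811 and 700 in V1 control, and 675 and 797 in V1 KD. RPL35A, of the large ribosomal subunit, had 487 and 364 in S1 control, 482 and 656 in S1 KD, 168 and 145 in V1 control, and 101 and 139 in V1 KD. The V1 values thus lay above all S1 values for RPS21 and below all of them for RPL35A. Their log2 ratios were 1.59 and 1.45 in control and 1.38 and 1.34 in KD for RPS21, and −1.54 and −1.33 in control and −2.26 and −2.24 in KD for RPL35A.

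RPS21 and RPL35A are the most covered of the 8 named short transcripts with most read starts per base, which were named by rule. Among the other members of this group, RPL24 ranged from −2.20 to −1.76 on the log2 scale of V1 over S1 over the 4 profiles. RPL6 ranged from −0.73 to −0.39, RPS6 from −0.10 to 0.21 and RPL11 from −0.55 to 0.15. RPS27A, whose protein is made fused to ubiquitin, ranged from −0.22 to 0.63, and PFDN5, a subunit of the chaperone prefoldin, from 0.22 to 0.50. RPS21 lay above and RPL35A and RPL24 below all the others in every profile, RPL35A above RPL24 in control and below it in KD, while RPS6, RPL11 and RPS27A overlapped.

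Whether the ratio of V1 to S1 shifts when ADAR1 is reduced is the question the KD libraries pose. For short transcripts no shift passed the test. With limma and Benjamini-Hochberg adjustment over the 4721 transcripts tested, 0 of the 529 were called for a changed ratio, as were 0% of all transcripts. At an unadjusted p under 0.05 there was 1 short transcript, and 0 were called with voom weights, where 1 had an unadjusted p under 0.05. With TMM scaling 4 had such a p, and 0 were called. The median log2 change was 0.03 over the short transcripts and 0.04 over all, with a median SE of 0.433 per short transcript, so that changes smaller than the spread between libraries were not detectable.

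In the replicates taken singly, the median change of the short transcripts was −0.01 in replicate 1 and 0.06 in replicate 2, and TMM scaling turned both, to 0.09 and −0.08. The ratio was higher in KD in both replicates for 174 short transcripts, lower in both for 118 and moved in opposite directions for 237. These are 32.9% higher and 22.3% lower, against 29.5% and 15.8% of all transcripts, so that the share moving up was near that of all and the share moving down above it. With TMM scaling the counts were 117, 141 and 271, or 22.1% higher and 26.7% lower, against 26.4% and 25% of all transcripts, so that the balance of directions depended on the scaling. Over short transcripts the changes in the replicates had a Pearson r of 0.229 and a Spearman rho of 0.162, a correlation across 529 transcripts that are not independent. A change past 0.5 in both replicates was seen for 3 short transcripts, all lower in KD, and for 0 that were higher. RPL35A was among these 3, with −0.72 and −0.91. Its fitted change was −0.81 ± 0.444 (SE), and its adjusted p of 1.00 did not pass.

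**Figure D2:**
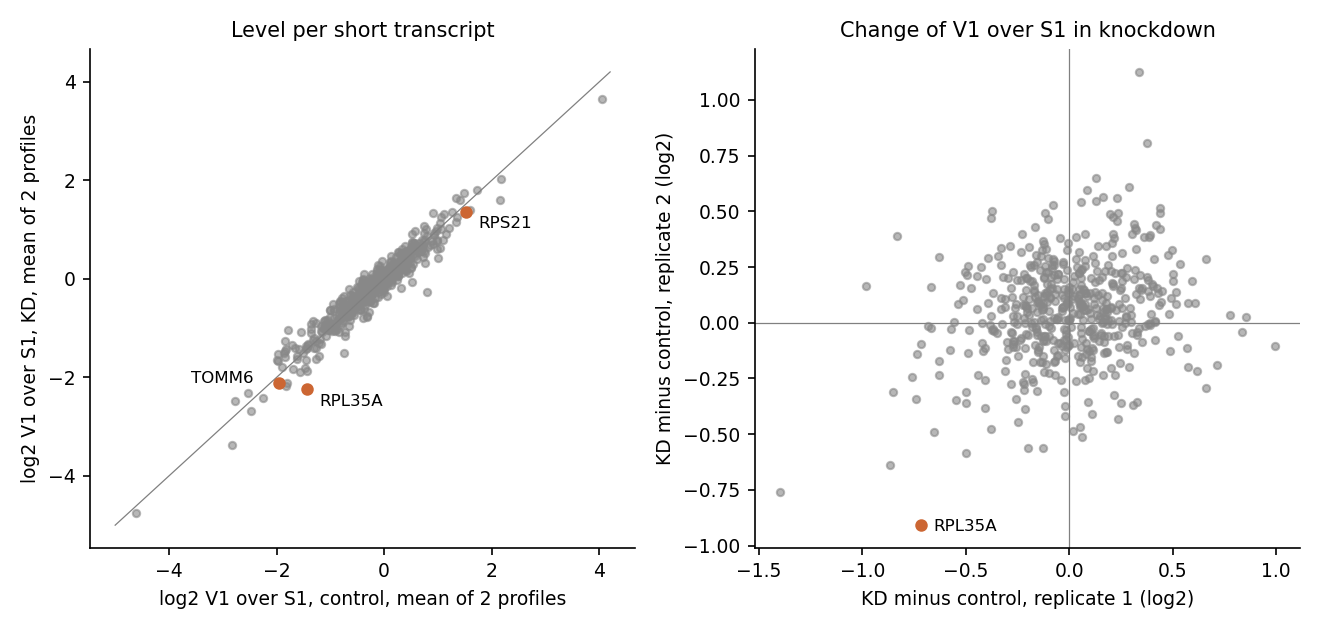
Log2 of V1 over S1 for each of the 529 short transcripts, as the control mean against the KD mean, and the change in KD in replicate 1 against that in replicate 2. The levels run from −4.68 to 3.85 and lie along the diagonal, while the changes in the replicates have a Pearson r of 0.229.

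Read starts themselves, taken for each nuclease alone, did change for some short transcripts. CSTB, which encodes the cysteine protease inhibitor cystatin B, and MGST1, the microsomal glutathione S-transferase, fell in KD with both nucleases. TXN, which encodes the redox protein thioredoxin, fell less, and TNNC1, which encodes a troponin C of cardiac and slow muscle, rose. These genes are named after their values were seen, since the rule for named genes rested on calls of the ratio, which gave 0.

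CSTB had 9.17 and 8.53 scaled read starts per base in S1 control and 1.36 and 1.77 in S1 KD, and 7.07 and 7.78 in V1 control and 1.08 and 1.79 in V1 KD. MGST1 had 63.7 and 41.5 in S1 control and 9.49 and 10.2 in S1 KD, and 44.2 and 32.5 in V1 control and 7.60 and 9.04 in V1 KD. Control and KD did not overlap for either gene with either nuclease. With equal totals, the test is of the change before the median change of all transcripts is taken off. CSTB fell by 2.51 on the log2 scale in S1 (SE 0.312, limma, Benjamini-Hochberg adjusted p = 2.44e-13) and by 2.41 in V1 (SE 0.363, adjusted p = 6.72e-09). MGST1 fell by 2.39 in S1 (SE 0.254, adjusted p = 4.40e-18) and by 2.19 in V1 (SE 0.361, adjusted p = 2.17e-07). Relative to the median, the changes were −2.15 and −2.08 for CSTB and −2.03 and −1.86 for MGST1. TMM scaling, which puts the median near 0, gave adjusted p = 1.14e-07 in S1 and 0.00334 in V1 for CSTB, and 3.46e-07 and 0.00217 for MGST1. They were the 2 named short transcripts called with both nucleases in all 8 fits that left out a library.

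TXN had 75.3 and 53.9 scaled read starts per base in S1 control and 23.5 and 28.6 in S1 KD, and 49.6 and 41.6 in V1 control and 17.8 and 23.1 in V1 KD. TNNC1 had 7.62 and 4.88 in S1 control and 16.2 and 14.0 in S1 KD, and 5.54 and 4.01 in V1 control and 12.3 and 13.6 in V1 KD. Here too control and KD did not overlap. TXN fell by 1.30 in S1 (adjusted p = 1.13e-05) and by 1.16 in V1 (adjusted p = 0.0234), which is −0.94 and −0.83 relative to the median. TNNC1 rose by 1.31 in S1 (adjusted p = 9.06e-05) and by 1.45 in V1 (adjusted p = 0.00203), which is 1.66 and 1.79 relative to the median. With TMM scaling the adjusted p was 0.00504 and 0.0229 for TXN and 5.18e-06 and 0.00334 for TNNC1. The V1 call of TXN was lost without V1 KD replicate 1, V1 control replicate 1 or V1 control replicate 2, with log2 changes of −0.98, −1.04 and −1.29 in place of −1.16. TNNC1 lost its S1 call without S1 KD replicate 1, at 1.20 in place of 1.31, and its V1 call without V1 control replicate 2, at 1.22 in place of 1.45.

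**Figure D3:**
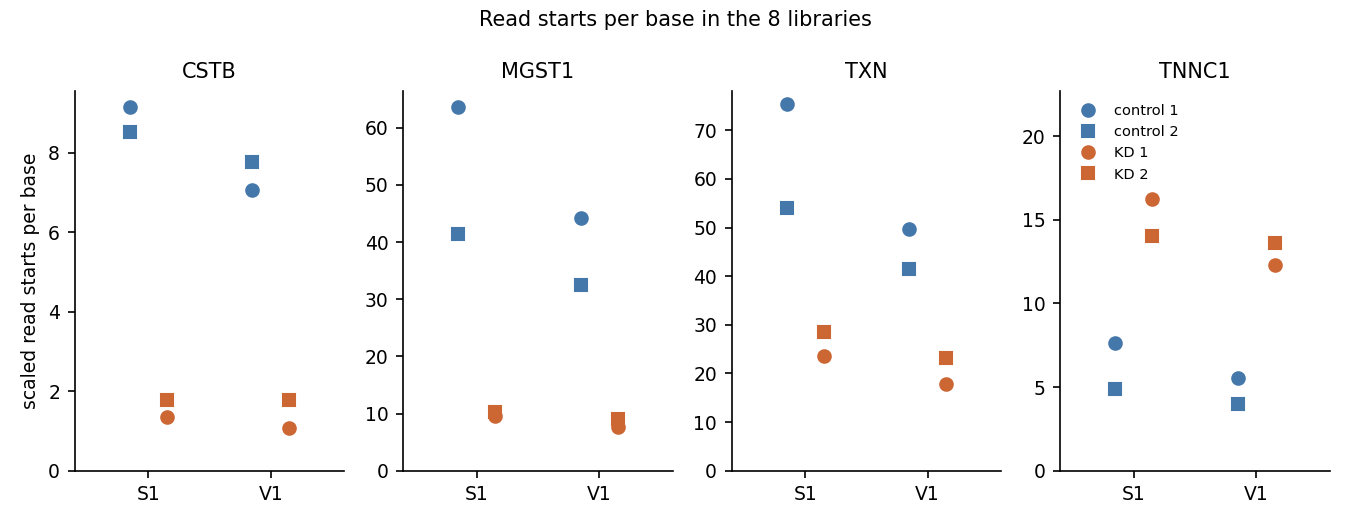
Scaled read starts per base of CSTB, MGST1, TXN and TNNC1 in the 8 PARS-seq libraries, by nuclease and condition, each point a library. The KD libraries lie below the control libraries for CSTB, MGST1 and TXN and above them for TNNC1, as in MGST1 with 63.7 and 41.5 in S1 control against 9.49 and 10.2 in S1 KD.

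Over all members, 115 of the 529 short transcripts were called for S1, or 21.7%, against 20.1% of all transcripts tested. For V1, 45 were called, or 8.51%, against 8.09% of all. With both nucleases and in the same direction, 44 were called, or 8.32%, against 7.88% of all. These shares lie near those of all transcripts and are not a result about the short ones. Of the 44, 39 fell and 5 rose, and 12 have a symbol. With the replicate block, which treats libraries of the same number as paired, 9 were called for V1 and 9 with both nucleases. That is 1.70% each, against 2.16 and 2.08% of all transcripts. With TMM scaling and the block together the counts were 246 and 130, or 46.5 and 24.6%, against 50.9 and 28.1% of all. Such a pairing is not established.

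The transcript of 13513 bases also moved the zero of these changes. With equal totals the median log2 change in KD was −0.36 over all transcripts in S1 and −0.34 in V1, and with TMM scaling it was 0.01 in each. Changes below are given relative to the median, calls rest on the change with equal totals unless TMM is named, and the direction of calls depends on the scaling. Of the S1 calls among short transcripts, 8 were higher and 107 lower in KD with equal totals. Higher calls were thus 6.96% of the short calls and 7.38% of all calls, and of all transcripts tested 1.48% were called higher and 18.6% lower. With TMM scaling 33 short transcripts were higher and 54 lower, or 37.9% higher among short calls and 42.4% among all calls, with 6.8% of all transcripts tested called higher and 9.24% lower. For V1, 5 were higher and 40 lower with equal totals, or 11.1% higher among short calls and 4.45% among all calls, with 0.36% of all transcripts tested called higher and 7.73% lower. With TMM scaling 10 were higher and 35 lower, or 22.2% higher among short calls and 35.7% among all calls, with 3.77% of all transcripts tested called higher and 6.8% lower. With both nucleases TMM scaling called 40 short transcripts, or 7.56%, against 9.24% of all. Under both scalings 32 short transcripts were called with both nucleases, 5 higher and 27 lower, or 6.05% against 6.12% of all transcripts, which is not a result about the short ones.

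Single libraries changed these counts. The S1 count of 115 became 20 without S1 KD replicate 1, 25 without S1 KD replicate 2, 49 without S1 control replicate 1 and 251 without S1 control replicate 2. The V1 count of 45 became 22 without V1 KD replicate 1, 125 without V1 KD replicate 2, 9 without V1 control replicate 1 and 17 without V1 control replicate 2. The counts therefore describe these libraries, and the other named genes called with both nucleases each lost a call without some library.

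The other named transcripts called with both nucleases all fell. TOMM6, a subunit of the channel through which proteins enter mitochondria, fell by 1.13 in S1 (adjusted p = 0.000883) and by 1.29 in V1 (adjusted p = 0.0104), which is −0.78 and −0.95 relative to the median. It had 302 and 192 scaled read starts per base in S1 control and 119 and 101 in S1 KD, and 71.9 and 53.1 in V1 control and 24.2 and 26.6 in V1 KD. Its S1 call was lost without S1 KD replicate 1, S1 KD replicate 2 or S1 control replicate 1, at −1.26, −1.01 and −0.81 in place of −1.13, and its V1 call without V1 control replicate 1 or 2, at −1.07 and −1.50 in place of −1.29. The others were NTPCR, a nucleoside triphosphatase, LAMTOR5, a subunit of the lysosomal Ragulator complex, TMEM258, a subunit of the enzyme that attaches N-glycans, and ARL2, a small GTPase. INSL4, a hormone of the relaxin family, MRPL40 of the mitochondrial ribosome and B2M, the light chain of MHC class I, completed the list and were no longer called with both nucleases under TMM scaling. Relative to the median, these 7 fell by 0.82 to 1.09 in S1 and by 0.77 to 1.05 in V1. Without V1 control replicate 1 each of the 7 lost its V1 call, and the V1 change of INSL4 before the median is taken off was −0.81 in place of −1.39.

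Among transcripts without a symbol, uc001keb.2, of 855 bases, fell most. It had 5.21 and 3.27 scaled read starts per base in S1 control and 0.578 and 0.640 in S1 KD, and 5.69 and 4.44 in V1 control and 0.821 and 0.959 in V1 KD, and fell by 2.40 in S1 and 2.16 in V1 relative to the median. The largest rise was that of uc002ejy.3, of 468 bases, from 1.19 and 0.930 to 4.39 and 6.06 in S1 and from 0.815 and 0.772 to 3.57 and 4.44 in V1, or 2.65 and 2.66 on the log2 scale. The files do not pair these identifiers with a gene, and both were called with both nucleases in all 8 fits that left out a library.

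**Figure D4:**
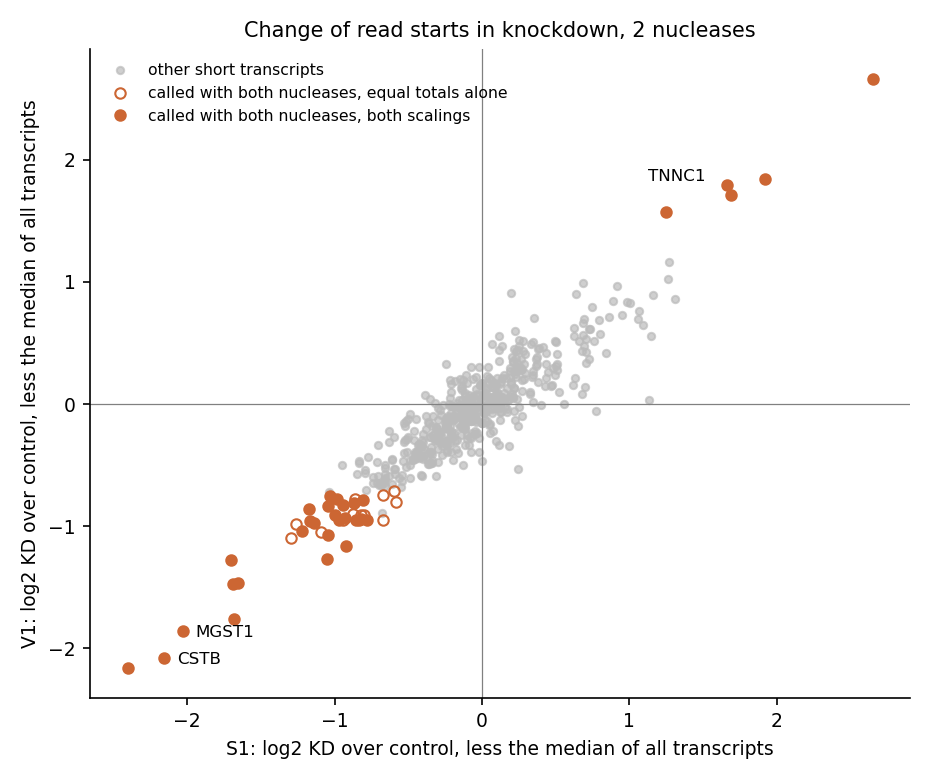
Log2 change in KD relative to the median of all transcripts for each of the 529 short transcripts, S1 on the x axis and V1 on the y axis. Orange points mark the 44 called with both nucleases, filled for the 32 called under both scalings and open for those called with equal totals alone. CSTB and MGST1 lie at the lower left and TNNC1 at the upper right, at 1.66 and 1.79.

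The lists of gene families hold only symbols from a list that the study chose on the change of the paired share of bases in these samples, so that they are no independent evidence of a direction. Of the 39 cytosolic ribosomal proteins listed, 28 are short transcripts, and 0 of these were called by limma with either nuclease and either scaling. Of all transcripts, 20.1% were called in S1 and 8.09% in V1 with equal totals, and 16 and 10.6% with TMM scaling. Of the 28, 22 lay above the median change of all transcripts in S1 and 17 in V1. Subunits of the respiratory chain and ATP synthase, 28 of 38 listed, lay on the other side, with 24 of 28 below the median in each nuclease under both scalings. NDUFB7, NDUFB9 and NDUFV2, all of complex I, were called lower in S1, by 0.33, 0.45 and 0.34 relative to the median, and none of these calls held under TMM scaling. The most covered subunits, NDUFS6, ATP5H, COX6A1 and COX4I1, had S1 changes of 0.22, −0.15, −0.21 and 0.07 relative to the median and none was called.

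Of 35 mitochondrial ribosomal proteins listed, 14 are short, and 10 of them lay below the median in each nuclease. MRPL43, MRPL40, MRPS15 and MRPL53 fell in S1, by 0.95, 0.82, 0.61 and 0.59 relative to the median, and MRPL40 fell in V1 by 0.91. With TMM scaling MRPL43 and MRPL40 kept the S1 call, and MRPL34 was called higher with both nucleases, by 0.63 in each. The 3 short members of the thioredoxin and peroxide-reducing list, TXN, GPX1 and PRDX4, all fell in S1. GPX1, a selenium-dependent glutathione peroxidase, had 14.8 and 7.20 scaled read starts per base in S1 control and 4.48 and 5.22 in S1 KD, and fell by 0.74. PRDX4, a peroxiredoxin of the endoplasmic reticulum, fell by 0.38 with equal totals and was not called with TMM scaling.

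Histone transcripts leaned the other way. All 7 listed replication-dependent histones are short, and 6 of the 7 lay above the median change in each nuclease under both scalings, with HIST1H1C, a linker histone, the exception at −0.30 in S1 and −0.47 in V1. HIST1H2AG had 1.87 and 1.72 scaled read starts per base in S1 control and 4.14 and 2.90 in S1 KD, and rose by 0.95 (limma, adjusted p = 0.0475), which is 1.31 relative to the median. That call was lost without S1 KD replicate 1 or 2, with changes before the median is taken off of 0.70 and 1.21. HIST1H4C had 4.61 and 2.66 in S1 control and 7.14 and 4.77 in S1 KD. It was 1.09 above the median, with an adjusted p of 0.114 with equal totals and 0.00381 with TMM scaling, where HIST1H4B was called as well. No histone was called in V1. In RNA-seq control, HIST1H2AG, HIST1H4C and HIST1H4B stood at 7.30, 0.755 and 0.0688 RPKM. Ribo-seq control gave 1000, 1512 and 1404 RPKM in replicate 1, and 491, 513 and 335 in replicate 2. PARS-seq was made from poly-A RNA, and how far these read starts follow the level of histone mRNA was not tested.

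In the remaining lists few members are short. PSMB6, a catalytic subunit of the proteasome, fell in S1 by 0.66, and PSME2, the other of 2 short members of 18 listed, was not called. UBB and UBL5, of 4 short members among 14 ubiquitin genes, fell in S1 by 0.49 and 0.34, without a call under TMM scaling. DAD1, a subunit of the enzyme that attaches N-glycans and 1 of 2 short members of 7 in its list, fell by 0.37 with equal totals alone. Of 5 short noncoding transcripts among 8 listed, LOC550643 and LOC645638 fell by 0.66 and 0.47, the second without a call under TMM scaling, and SNHG6 was at 0.11 without a call. SNRPF and LSM6, the 2 short members of 10 splicing proteins listed, were at 0.28 and 0.62 without a call with equal totals, and LSM6 was called higher with TMM scaling (adjusted p = 0.0488). TIMM10 and TIMM8B, which with TOMM6 are the 3 short members of 11 import proteins, were at 0.01 and −0.28 in S1 without a call. In all, 18 of the 98 short members of the lists were called in S1, or 18.4%, near the 20.1% of all transcripts and not a result about the lists. With TMM scaling 8 of the 18 were called. Without S1 KD replicate 1 the call was kept by 1, without S1 KD replicate 2 by 2, without S1 control replicate 1 by 5 and without S1 control replicate 2 by 18, and TXN alone kept it in all 4.

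Other assays of the same genes gave a partly similar picture. Of the 12 named transcripts called with both nucleases, 10 have an entry in the RPKM table, and 9 of them moved in RNA-seq, and 9 in Ribo-seq replicate 1, in the direction of PARS-seq, against 4 in Ribo-seq replicate 2. CSTB was at 263 RPKM in RNA-seq control and 105 in KD, and in Ribo-seq at 327 and 128 in replicate 1 and 138 and 128 in replicate 2. MGST1 was at 65.5 and 45.8 in RNA-seq, and in Ribo-seq at 387 and 244 in replicate 1 and 35.1 and 55.9 in replicate 2. TNNC1 was higher in KD in each pair, at 49.9 and 131 RPKM in RNA-seq and at 23.1 and 85.9, and 12.1 and 35.2, in Ribo-seq.

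TXN went from 111 RPKM in RNA-seq control to 62.6 in KD, while Ribo-seq gave 640 and 381 in replicate 1 and 222 and 385 in replicate 2, in opposite directions. B2M was the one of the 10 that moved against PARS-seq in RNA-seq, at 403 and 417. Over the 193 short transcripts with an entry, 78 lay above the median log2 change of all genes in RNA-seq and 75 in Ribo-seq replicate 1, against 160 in Ribo-seq replicate 2. The median change of the short ones was −0.07, −0.11 and 0.58, against −0.01, −0.01 and 0.14 over all genes. RNA-seq has 1 library per condition and no test was made, and the Ribo-seq replicates went in opposite directions for short transcripts as a set.

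Along the transcript, read starts of short transcripts piled up in the middle and were scarce at the 3′ end. With each transcript cut into 10 equal parts and given equal weight, the fifth part held between 13.2 and 14.2% of the read starts in every library. The first part held 6.93 and 6.21% in S1 control, 6.77 and 6.23% in S1 KD, 7.17 and 6.37% in V1 control, and 6.98 and 6.26% in V1 KD. The last part held 1.20 and 1.82%, 1.39 and 1.92%, 1.23 and 1.76%, and 1.37 and 1.78% in the same order. Libraries numbered 1 were higher in the first part and lower in the last than libraries numbered 2, with either nuclease and in either condition, and control and KD overlapped. Against the control library of its number, each KD library was higher in the last part, in 4 of 4 cases and by less than libraries numbered 1 and 2 differed, while the first part showed no common direction.

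The nucleases overlapped at the ends in this measure, and no difference passed. Exact permutation tests of 4 V1 against 4 S1 libraries gave p = 0.514 for the first part, 0.714 for the last and 0.657 for the log2 ratio of last to first. Within a condition and number, V1 lay above S1 in the first part in 4 of 4 cases and below it in the log2 ratio in 4 of 4, by less than the libraries numbered 1 and 2 differed. When read starts were summed over transcripts in place of equal weights, the first part held 12.1 ± 3.23% in S1 and 5.81 ± 0.478% in V1 (exact permutation p = 0.0286). This difference thus appears only where the most covered transcripts weigh most. Without a V1 library, whichever was left out, the exact permutation p was 0.0571, with V1 less S1 at −6.53 to −6.15 percentage points. The last part held a smaller share in short transcripts than in longer ones. The last part of transcripts over 1000 bases held 4.57 to 8.98%, above every short-transcript value, and the mean difference within libraries was −5.31 ± 1.33 percentage points (SD, n = 8; exact permutation of signs p = 0.00781). The test takes the 8 libraries as independent, and the labels do not say whether S1 and V1 libraries share RNA preparations. This comparison was chosen after seeing the data, and each of the 10 parts spans at most 100 bases in a short transcript and more in a longer one, so that length itself enters it. The last read start lay a median of 35 to 39 bases from the 3′ end of short transcripts. In longer ones it lay 38 to 47 bases from that end. This gap takes up more of the last part in a short transcript, so that the test cannot separate the 3′ end from the cutting into parts.

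**Figure D5:**
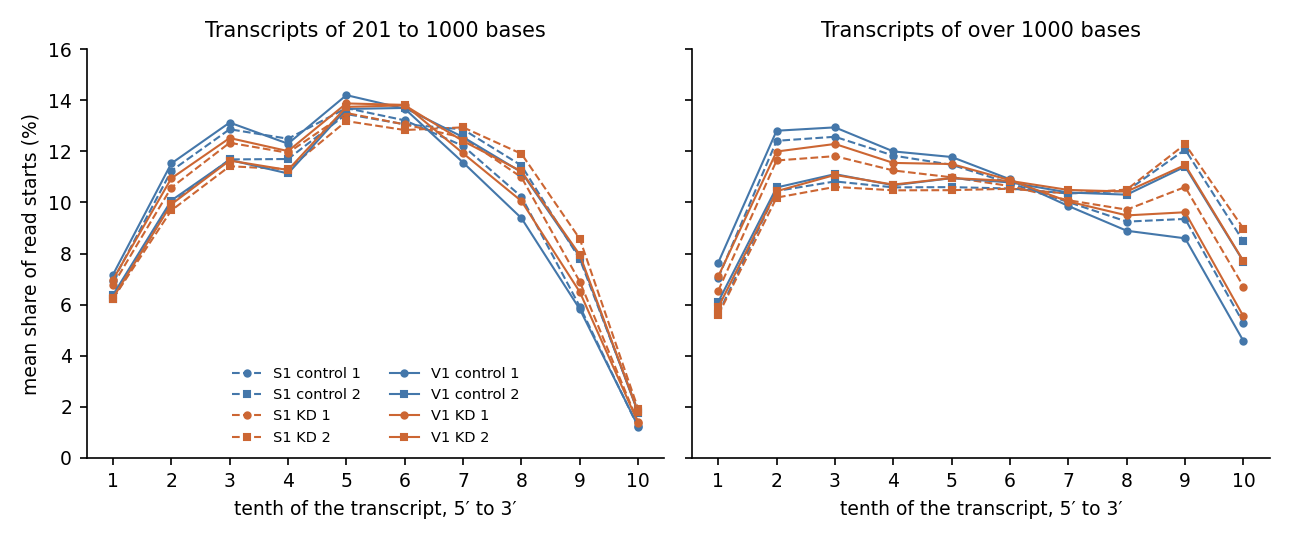
Mean share of the read starts of a transcript in each of 10 equal parts from the 5′ to the 3′ end, in percent, for the 8 libraries, over short transcripts and over transcripts over 1000 bases. The last part holds 1.20 to 1.92% in short transcripts and 4.57 to 8.98% in longer ones.

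Within short transcripts, S1 cuts were gathered on fewer bases than V1 cuts, as at the bases of MRPL43 and HIST1H4B printed above. RPS21 went the other way in its coding sequence, where the most covered V1 base held a larger share than the most covered S1 base. The most covered base held a median of 12.1 and 12% of the S1 read starts of a short transcript in control and 12.4 and 12% in KD, against 6.59 and 6.42% in V1 control and 6.41 and 6.39% in V1 KD. All S1 libraries lay above all V1 libraries (means 12.2 and 6.45%, exact permutation p = 0.0286, the smallest possible), and control and KD lay close together. A read start was found on a median of 42.8 and 43.3% of the bases in S1 control, 35.7 and 37.3% in S1 KD, 51.0 and 49.7% in V1 control, and 50.1 and 48.8% in V1 KD (exact permutation p = 0.0286 for V1 against S1). With the read starts of each transcript thinned to equal numbers, the difference between the nucleases remained, at 34.9% for S1 and 43.9% for V1. The KD values of S1 were the lowest of all, and S1 read starts of short transcripts were also fewer in KD.

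Profiles of cuts repeated closely. Over the 446 short transcripts with at least 1 read start per base in every library, the median Pearson correlation across bases was 0.971 and 0.974 between replicates of S1 and 0.946 and 0.956 between replicates of V1. A control and a KD library that share a number reached 0.974 and 0.978 in S1 and 0.961 and 0.972 in V1, and those of unlike number 0.958 and 0.976 in S1 and 0.949 and 0.952 in V1. By Spearman correlation, replicates had 0.726 and 0.765 in S1 and 0.772 and 0.786 in V1, and control and KD of one number 0.744 and 0.740 in S1 and 0.787 and 0.776 in V1. Between an S1 and a V1 library the Pearson correlation was 0.0306 to 0.0427 over 16 pairs, and the Spearman correlation 0.282 to 0.318. Bases of a transcript are not independent, and these values describe the libraries. In cut positions, then, a KD and a control library of one nuclease lay in about the range of the replicates, and libraries of different nucleases far below.

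The share of paired among classified bases, DS/(DS+SS), gathers the balance of the nucleases base by base. For short transcripts it was lower in KD at low coverage and level or higher at high coverage. A base counts as DS where V1 read starts are in excess over S1 by Fisher's exact test per base, and as SS in the opposite case. Over the 505 short transcripts with enough classified bases, the control replicates had medians of 0.603 and 0.607 and the KD replicates medians of 0.562 and 0.586. The median change was −0.0387 in replicate 1 and −0.0228 in replicate 2, against −0.0728 and −0.0370 over transcripts over 1000 bases. Of the short transcripts, 56.0% had a lower share in KD in both replicates and 12.9% a higher one in both, against 76.3 and 2.78% of the transcripts over 1000 bases.

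When the 505 were split by their mean coverage over all libraries into 4 groups of 126 or 127, a split chosen after seeing the data, the change followed coverage. In the least covered group, with 0.660 to 2.58 read starts per base, the median change was −0.0851 and −0.0747, and 84.3% were lower in both replicates. The next groups gave −0.0576 and −0.0404, then −0.0350 and −0.0175. In the most covered group, from 20.6 read starts per base upwards, the change was 0.00337 and 0.0221, with 9.52% lower in both and 38.9% higher in both. At p under 0.01 per base it was −0.000469 and 0.0182 there, so that the direction in replicate 1 depended on the threshold. Of the 8 most covered named transcripts, 6 were higher in both replicates, such as RPS21, which went from 0.704 and 0.670 to 0.756 and 0.703. RPL11 changed by −0.0126 and 0.0686 and PFDN5 by −0.0144 and 0.0272, in opposite directions. CSTB, with few reads in KD, went from 0.571 and 0.614 to 0.406 and 0.565. Symbols are known only for transcripts that the study chose on the change of this same share, so that the named ones are no independent sample of it.

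The decrease depended on how reads were sampled and bases tested. It kept its direction in both replicates with libraries thinned to the smallest total (−0.0140 and −0.0382), tested against the totals of the transcript (−0.0246 and −0.0180), at p under 0.01 per base (−0.0420 and −0.0214), and with at least 50 classified bases (−0.0353 and −0.0191). With every transcript thinned to the same number of read starts in all 8 libraries and tested against its own totals, an alternative added after seeing the data, the median change over the short transcripts was 0.00528 and 0.00597 in place of the decrease. It was −0.00795 and 0.00133 in the least covered group and 0.0154 and 0.0183 in the most covered, where 59.0% were higher in both replicates. No test between conditions was made for this share. An exact permutation test of 2 against 2 libraries has no two-sided p smaller than 0.33, and no fit across transcripts was made.

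At the limits of length single transcripts differed widely. The shortest members are 2 transcripts of 216 bases, both without a symbol, with log2 ratios of V1 to S1 of −3.64 to −2.75 and of −4.91 to −4.49 over the 4 profiles. The next transcript below the limit has 198 bases and ranged from −0.04 to 2.02. At the upper limit, HCFC1R1, with 1000 bases, ranged from 0.34 to 0.81, an unnamed transcript of 1000 bases from −0.14 to 0.39, and the next above, with 1004 bases, from −0.09 to 0.12.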

How the data were processed

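Read starts were measured by PARS-seq in 8 libraries, 2 for each nuclease and condition, and their groups and numbers follow the titles of the samples. According to the submitters' processing notes, reads were trimmed with cutadapt and aligned with Bowtie2 to hg19 (GRCh37), without versions. For read starts along transcripts, the paper instead gives an alignment to the knownCanonical transcripts of UCSC. The deposited tables hold read starts, a unit classed as other, as whole numbers per base of UCSC transcripts from uniquely aligned reads, which the authors left without normalization. The authors also deposited RPKM for RefSeq genes, and 4 of its columns, which are their averages of PARS-seq libraries across nucleases, were not used.

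Transcripts of more than 200 and at most 1000 bases listed in all 8 tables were kept, and the members and gene lists were chosen with earlier results of these data known. Symbols came from the study's list of transcripts, chosen by the study on the change of DS/(DS+SS) in these samples. Named by rule were the 8 most covered named members, the largest called changes of the ratio (of which there were 0), up to 4 most covered members of each gene list, ADAR, and the transcripts at the limits of length.

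Read starts per transcript were scaled to equal totals over the 4722 transcripts, 0.5 was added and log2 values were tested with limma 3.58.1 (R 4.3.3) with a mean trend, two-sided, with Benjamini-Hochberg adjustment over all 4721 transcripts with at least 10 read starts in 2 libraries, at an adjusted p of 0.05. The design had assumed this test because each cell holds a list of numbers. When a library is left out, the lone library of its group is taken to vary like the others. Single values per library were compared by exact permutation tests, two-sided, with a smallest p of 0.0286 for 4 against 4 libraries, and p-values measure only the spread between libraries. Each base was tested for DS or SS with Fisher's exact test (p under 0.05), where all libraries had over 256 read starts on the transcript and 20 or more bases were classified. RPKM values had a pseudocount of 1, over genes with a mean of at least 1. Sequences are those of GENCODE transcripts lifted to GRCh37. Alternatives covered scaling (TMM, computed from its published definition, and totals without the most covered transcript), filters, the added constant, voom weights, the replicate block, thinning and leaving out each library. The comparisons of the most covered base, of covered bases, of groups by coverage and of short with longer transcripts were chosen after seeing the data. The fits and base calls were tested on simulated data. Python 3.11.15 with numpy 2.4.6, pandas 2.3.3, scipy 1.17.1, numba 0.67.0 and matplotlib 3.10.9 was used. Transcripts missing from the table of S1 control replicate 1 were left out.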

Additional observations from a re-analysis of the deposited data

Results flagged for a closer look

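In 44 groups of 4 libraries, the 4 libraries of a nuclease were searched for one that lay far from the other 3 by the share of the whole range that its gap to the nearest neighbour takes (Dixon's test). Chance picks about 1 in 20 such groups, and 2 were found.

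The total of V1 KD replicate 1, 197781370 read starts on the 4722 transcripts, lay far above the other V1 libraries, which had 102727180, 106049447 and 110610610. The same library gave the most covered transcript 59.3% of its read starts. The median share of the read starts of a short transcript at its most covered base was 6.59% in V1 control replicate 1, above 6.42, 6.41 and 6.39% in the other V1 libraries, all far below the S1 libraries at 12 to 12.4%.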

How the results depend on the processing

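Over the values that answer a comparison, 150 alternatives were run. Of these, 114 were classed as the same, 31 as moved, 3 as stronger and 2 as reversed. Tested values were classed by direction and side of the threshold, and short against longer transcripts by direction alone. Only counts and untested values were also classed by size, so that a tested value classed as the same can differ in size. For the 47 calls of 31 named transcripts, 580 alternatives gave 458 calls, 122 lost calls and 0 turned directions, and 81 of the losses came from leaving out a library, 13 from TMM scaling and 12 from the replicate block. Why a value moved was not tested unless the alternative itself changes the libraries or reads used.

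The S1 count of 115 ranged from 20 to 251 without a library. The V1 count of 45 ranged from 9 to 125 without a library, and was 73 with voom weights, 9 with the replicate block and 246 with TMM scaling and the replicate block together, an alternative added after seeing the data. The S1 count was 124 with the replicate block, and the count with both nucleases, 44, was 9 with it and 130 with TMM scaling as well. That libraries of the same number are paired is not established, though their deviations from the group means had a correlation across transcripts of 0.467 in S1 and 0.663 in V1. For the ratio, 0 short transcripts were called in every alternative, leave-one-out fits included, while 2 of all 4721 transcripts were called with the replicate block.

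The median log2 of V1 over S1 changed by 0.03 on average, and by −0.0562 for transcripts of up to 500 bases. The difference of V1 less S1 in the share of the library was −3.89 percentage points, and passed the threshold at −4.73 without the most covered transcript and at −1.54 without the 2 most covered short transcripts as well. Without a library it ranged from −4.69 to −2.63.

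Along the transcript, the difference of V1 less S1 in the log2 ratio of last to first part, −0.07, turned to 1.65 when read starts were summed over transcripts and was 0.00889 for the first and last 100 bases, with −0.22 to 0.0674 without a library. The first part, at 0.162 percentage points, turned to −6.30 when summed and was −0.0241 for 100 bases. The last part, at −0.0440, was 0.341 when summed and 0.0110 for 100 bases, and −0.172 to 0.0675 without a library. The mean replicate correlation of 0.962 was 0.762 by Spearman and 0.975 with at least 5 read starts per base.

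The mean change of DS/(DS+SS), −0.0308, was 0.00562 with every transcript both thinned to equal read starts and tested against its own totals. Testing against the totals of the transcript alone gave −0.0213, and thinning the libraries to the smallest total −0.0261. The difference of the most less the least covered of the 4 groups, 0.0927, was 0.0763 against the transcript totals, 0.0738 with libraries thinned to the smallest, 0.0842 with at least 50 classified bases and 0.0202 with equal read starts and the transcript totals together.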
